A study of Arabidopsis thaliana with 12 samples.

Results

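The 10 genes described here encode mitotic cyclins, B-type cyclin-dependent kinases (CDKs) and proteins that act with them as a plant cell divides. They form a set drawn up by name, with earlier results of these data known, as CYCD3;1, CYCB1;1, CYCB1;2, CYCB1;3, CDKB1;1, CDKB2;1, CDKB2;2, KNOLLE, CDC20.1 and AUR1, out of 32833 loci in the count files. All 10 were among the 19090 genes with enough counts to be tested. RNA sequencing was done on stable transgenic Arabidopsis thaliana lines of the Col-0 ecotype, grown in soil with 16 h of light per day at 22 °C. Pooled aerial tissue was harvested 15 days after germination. The Control line carried GFP and BAR, the Mlp37347 line carried Mlp37347-GFP and BAR, and the Mlp124499 line carried Mlp124499-GFP and BAR, so that GFP and BAR were shared by all 3 groups. Mlp37347 and Mlp124499 are candidate effectors that the fungus Melampsora larici-populina, which causes rust on poplar, is thought to secrete. Each group had 4 libraries. The sources used here do not name the promoter that drove each fusion or the number of independent lines. They also do not say whether a line's libraries stem from plants grown apart, so p-values measure only the spread between these samples, which may be technical.

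In plants as in animals, a CDK acts only when bound to a cyclin, and successive cyclins carry the cell from the decision to divide, through DNA synthesis, into mitosis. D-type cyclins act early with CDKA;1, whereas B1-type cyclins and the plant-specific B-type CDKs accumulate as cells enter mitosis and are removed through the anaphase-promoting complex. In leaves these genes are used mainly in young, growing tissue, and their RNA falls to low levels once cells stop dividing. Many of them are read by MYB3R transcription factors, which bind the mitosis-specific activator element, a short promoter sequence with the core AACGG.

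That core was searched for, on both strands, from 250 bases before to 50 bases after the annotated start of 9 of the 10 genes in RefSeq's annotation of the TAIR10.1 build, matched by locus tag. At least 1 core was present in 7 of the 9 windows, against 24.7% of 27443 windows of the same length. At least 2 were present in 4 of the 9 windows, against 4.89% of all windows. The 250 bases before the start are shown for the 3 B1 cyclins, which held the most cores before the start, and for CYCD3;1, whose level passed the test described further on. Each is written 5′ to 3′ on the gene's strand, with capitals marking the core on either strand (AACGG or its complement CCGTT).
CYCB1;1, minus strand, chr4:17624309-17624558: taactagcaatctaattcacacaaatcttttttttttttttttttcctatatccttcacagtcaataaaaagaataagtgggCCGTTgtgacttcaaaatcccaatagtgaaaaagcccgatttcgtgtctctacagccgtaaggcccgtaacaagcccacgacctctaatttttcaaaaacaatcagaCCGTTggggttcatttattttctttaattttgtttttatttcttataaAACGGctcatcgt
CYCB1;2, minus strand, chr5:1861704-1861953: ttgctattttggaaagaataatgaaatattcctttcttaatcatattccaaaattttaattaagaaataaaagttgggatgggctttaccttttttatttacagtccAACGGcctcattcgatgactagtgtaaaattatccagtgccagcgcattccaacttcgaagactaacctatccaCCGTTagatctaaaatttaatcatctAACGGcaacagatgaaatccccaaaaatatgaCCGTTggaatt
CYCB1;3, minus strand, chr3:3627274-3627523: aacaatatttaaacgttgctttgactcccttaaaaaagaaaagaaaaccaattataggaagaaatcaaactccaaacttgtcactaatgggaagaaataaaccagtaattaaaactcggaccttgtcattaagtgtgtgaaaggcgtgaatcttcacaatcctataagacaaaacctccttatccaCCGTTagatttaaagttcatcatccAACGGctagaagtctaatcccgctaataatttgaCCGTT
CYCD3;1, plus strand, chr4:16357171-16357420: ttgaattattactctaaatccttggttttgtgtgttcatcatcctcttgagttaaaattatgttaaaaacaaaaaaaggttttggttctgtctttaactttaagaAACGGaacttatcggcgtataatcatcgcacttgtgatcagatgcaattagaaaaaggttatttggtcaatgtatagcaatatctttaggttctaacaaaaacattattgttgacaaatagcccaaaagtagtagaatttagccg

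CYCB1;2 held 4 cores before its start, with 1 more after it, and CYCB1;1 and CYCB1;3 held 3 each. CYCD3;1, CDKB2;2, AUR1 and KNOLLE held 1 each before the start, and KNOLLE a further 2 after it. No match was found in the windows of CDKB1;1 and CDC20.1. The letters TTCCCGC and TTGGCGC, which are bound by E2F factors that control genes of DNA synthesis, were in none of the 9 windows on either strand, against 1.53% and 0.940% of all windows. A match describes the sequence only, and a window without one says only that these letters are not in it.

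**Figure D1:**
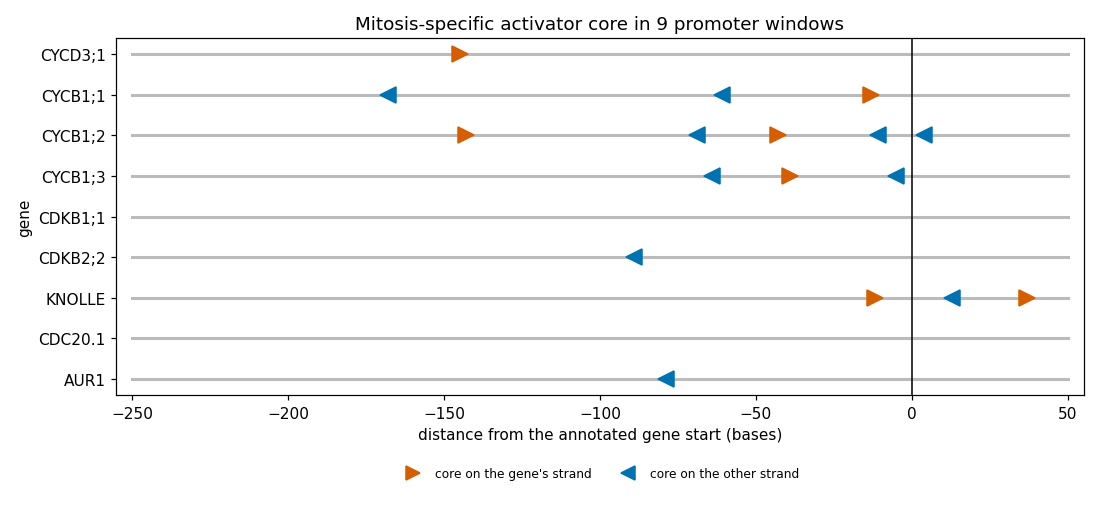
Positions of the AACGG core in the window from 250 bases before to 50 bases after the annotated start of 9 genes. The x axis gives the distance of the core's first base from the start, and the triangle gives its strand relative to the gene. CYCB1;1, CYCB1;2 and CYCB1;3 hold 3, 4 and 3 cores before the start, while CDKB1;1 and CDC20.1 hold none in the window.

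Depth, as total counts per library, ranged from 6645703 to 37378917 in Control, while Mlp37347 had 12368262 to 24483245 and Mlp124499 had 10813288 to 14733894. Levels are counts for every 1000000 counts of a library after TMM scaling (CPM). Some libraries stood apart. Control 1 had 57.6% of its reads aligned, against 88.0% to 95.5% in the others. Mlp37347 1, 2 and 3 differed from each other by a chi-square of 2.92 to 6.55 per degree of freedom and from Mlp37347 4 by 164 to 221. These 3 libraries also had a mate inner distance of 110 to 115 bp, against 50 to 84 bp in the other 9, with 70 bp in Mlp37347 4. Libraries as close as Mlp37347 1, 2 and 3 may not be independent. Results are given with and without Mlp37347 4. The fit without it rests on those 3 close libraries, whose small spread may be technical. Its larger counts and smaller adjusted p-values therefore cannot be read as stronger than those of the fit to 12 libraries. In Mlp124499, libraries 1 and 2 differed by 7.29 and the other pairs by 43.1 to 140.

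The genes of cell division were higher in Mlp37347 1, 2 and 3 than in any Control library, in 10 of 10 genes in each of these 3 libraries. Of all genes tested, 29.6%, 29.7% and 29.3% were above every Control library in Mlp37347 1, 2 and 3, and 23.1% were so in all 3 of them. Averaged over the 10 genes, the level on the log2 scale was 1.20, 1.21 and 1.17 above the Control mean in Mlp37347 1, 2 and 3, and 0.01 above it in Mlp37347 4. In Mlp124499 the same mean was 0.60 and 0.46 above Control in libraries 1 and 2, 0.73 below it in library 3 (a value of -0.73) and 0.03 above it in library 4. The Control libraries themselves lay at -0.26, -0.08, 0.08 and 0.26. Mlp124499 3 was the lowest of all 12 libraries in 8 of the 10 genes, against 9.73% of all genes tested, and lay below every Control library in 9, against 28.8%. In a bulk sample of whole shoots, fewer dividing cells and less RNA per dividing cell cannot be told apart.

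**Figure D2:**
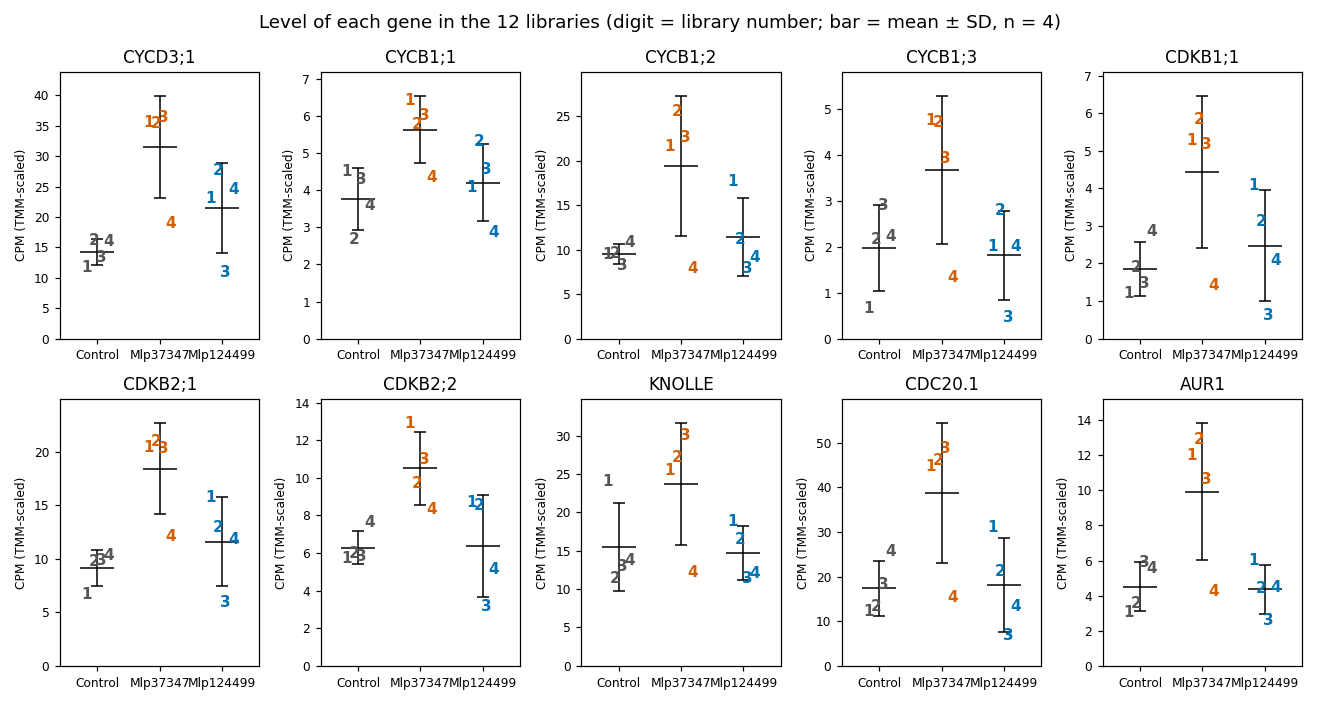
Level of each of the 10 genes in CPM (y axis, starting at 0) in the 3 groups (x axis). Each digit is 1 library, placed at its value, and the bar is the mean with its SD (n = 4). Mlp37347 1, 2 and 3 sit above every Control library in each panel, and Mlp37347 4 does so in 3 of the 10.

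With all 12 libraries, 2 of the 10 genes, CYCD3;1 and CDKB2;1, rose in Mlp37347 against Control in edgeR's quasi-likelihood test, and 0 fell. Of all genes tested, 3.19% were called higher and 5.42% lower in that comparison at an adjusted p under 0.05. All 10 fitted fold changes were above 0, with a median of 1.02 on the log2 scale, against a median of 0.01 over all genes tested, of which 51.1% were above 0. At an unadjusted p under 0.05, 8 of the 10 were higher and 0 lower, against 11.6% and 13.7% of all genes tested. The libraries of both groups did not overlap for 3 of the 10 genes, all higher in Mlp37347, against 8.41% of all genes tested. Without Mlp37347 4, which leaves the 3 close libraries of that line, 7 of the 10 were called higher, against 11.6% of 19382 genes. Without Mlp124499 4 as well, 9 were, against 16.5% of 19232 genes. Against Control, 0 of the 10 were called in Mlp124499, where 1.56% of genes were called higher and 2.71% lower, and 0 were called between both effector lines, where 1.10% were called higher in Mlp37347 and 1.59% lower.

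**Figure D3:**
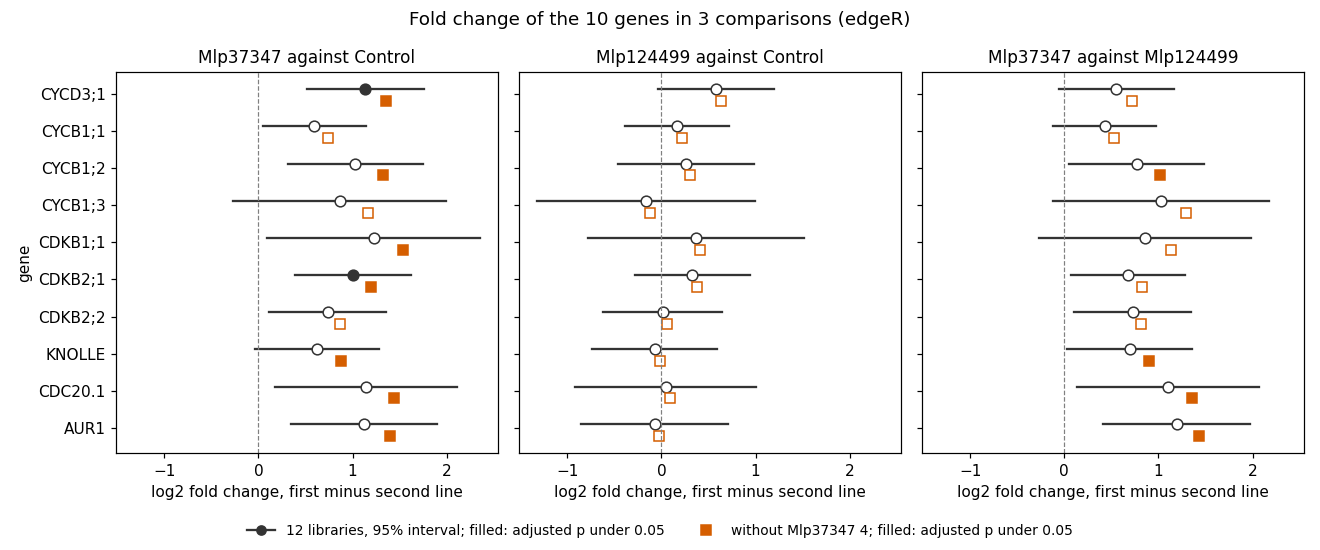
Log2 fold change (x axis) of the 10 genes (y axis) in the 3 comparisons. Circles with lines are the fit to 12 libraries with its 95% interval, squares are the fit without Mlp37347 4, and filled symbols have an edgeR adjusted p under 0.05. Filled are 2 circles and 7 squares in Mlp37347 against Control, none in Mlp124499 against Control, and 4 squares between the effector lines.

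CYCD3;1 (AT4G34160, chr4:16357421-16359565, plus strand) encodes the D-type cyclin that, bound to CDKA;1, drives cells of young leaves into division by way of the retinoblastoma-related protein. It stood at 11.7, 16.1, 13.4 and 16.0 CPM in Control 1 to 4, at 35.5, 35.3, 36.4 and 19.0 CPM in Mlp37347 1 to 4, and at 23.0, 27.7, 10.8 and 24.5 CPM in Mlp124499 1 to 4. Every Mlp37347 library was above every Control library, with library 4 nearest to them, and Mlp124499 3 was the lowest of the 12. The level rose from 14.3 ± 2.15 CPM (SD, n = 4) in Control to 31.5 ± 8.38 CPM in Mlp37347, by 1.14 ± 0.29 (SE) on the log2 scale (edgeR adjusted p = 0.0288). In Mlp124499 it was 21.5 ± 7.42 CPM, a log2 fold change against Control of 0.58 ± 0.28 (95% interval -0.03 to 1.20, edgeR adjusted p = 0.347). The annotated gene overlaps AT4G34150 on the same strand, so reads in the shared stretch could belong to either. The call in Mlp37347 was lost when Control 1, 2 or 3 or Mlp37347 1, 2 or 3 was left out, with an adjusted p of up to 0.0832.

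The B1 cyclins bind CDKs at entry into mitosis and are destroyed as it ends. CYCB1;1 (AT4G37490, chr4:17621886-17624308, minus strand), which is also induced by DNA damage, stood at 4.51, 2.67, 4.30 and 3.59 CPM in Control 1 to 4, at 6.43, 5.79, 6.01 and 4.35 CPM in Mlp37347 1 to 4, and at 4.08, 5.33, 4.57 and 2.85 CPM in Mlp124499 1 to 4. Mlp37347 4 lay inside the Control range and the other 3 libraries of that line above it. Its log2 fold change in Mlp37347 was 0.59 ± 0.25 (edgeR adjusted p = 0.162), the smallest of the 10.

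CYCB1;2 (AT5G06150, chr5:1859279-1861703, minus strand) stood at 9.42, 9.57, 8.19 and 10.8 CPM in Control 1 to 4, at 21.6, 25.5, 22.6 and 7.90 CPM in Mlp37347 1 to 4, and at 17.7, 11.1, 7.90 and 9.08 CPM in Mlp124499 1 to 4. Mlp37347 4 was below every Control library, whereas the other 3 libraries of that line were above them all. The log2 fold change in Mlp37347 was 1.03 ± 0.33 with 12 libraries (edgeR adjusted p = 0.0735) and 1.33 without Mlp37347 4 (adjusted p = 0.00301). In its exons, 11.3% of the stretches of 50 bases occur again in AT1G34460, named CYCB1;5 in the annotation, so its count could be split with that locus.

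CYCB1;3 (AT3G11520, chr3:3625286-3627273, minus strand) was at the lowest counts of the set, down to 5 counts in Control 1. It stood at 0.664, 2.15, 2.89 and 2.23 CPM in Control 1 to 4, at 4.74, 4.70, 3.93 and 1.33 CPM in Mlp37347 1 to 4, and at 2.00, 2.79, 0.465 and 2.01 CPM in Mlp124499 1 to 4. Against Control, its log2 fold change in Mlp37347 was 0.86 ± 0.52 (95% interval -0.27 to 1.99, edgeR adjusted p = 0.328). It was not called without Mlp37347 4 either (adjusted p = 0.0987).

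B-type CDKs are kinases found in plants, and those of the B1 class also act in the divisions of the stomatal lineage. CDKB1;1 (AT3G54180, chr3:20059671-20061488, plus strand) stood at 1.19, 1.89, 1.48 and 2.85 CPM in Control 1 to 4, at 5.29, 5.84, 5.18 and 1.42 CPM in Mlp37347 1 to 4, and at 4.08, 3.12, 0.619 and 2.07 CPM in Mlp124499 1 to 4. The values of Mlp37347 1 to 3 were above all other libraries, and that of Mlp37347 4 was within the Control range. Its log2 fold change in Mlp37347 was 1.22 ± 0.52 (edgeR adjusted p = 0.165), and 1.54 without Mlp37347 4 (adjusted p = 0.0332).

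The B2-type CDKs act at entry into mitosis and in the shoot meristem. CDKB2;1 (AT1G76540, chr1:28720328-28722550, minus strand) stood at 6.64, 9.77, 9.80 and 10.3 CPM in Control 1 to 4, at 20.4, 20.9, 20.3 and 12.1 CPM in Mlp37347 1 to 4, and at 15.7, 12.9, 5.89 and 11.8 CPM in Mlp124499 1 to 4. All 4 Mlp37347 libraries were above all 4 Control libraries. The level rose from 9.13 ± 1.68 to 18.4 ± 4.24 CPM (SD, n = 4) in Mlp37347, by 1.01 ± 0.28 (SE) on the log2 scale (edgeR adjusted p = 0.0450). In Mlp124499 it was 11.6 ± 4.13 CPM (log2 fold change 0.33, 95% interval -0.28 to 0.94, edgeR adjusted p = 0.680). The call in Mlp37347 was lost when any Control library, Mlp37347 1, 2 or 3, or Mlp124499 2 was left out, with an adjusted p of up to 0.106.

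CDKB2;2 (AT1G20930, chr1:7292389-7294746, minus strand) stood at 5.71, 5.99, 5.84 and 7.60 CPM in Control 1 to 4, at 12.9, 9.71, 11 and 8.34 CPM in Mlp37347 1 to 4, and at 8.71, 8.53, 3.17 and 5.12 CPM in Mlp124499 1 to 4. The Mlp37347 and Control libraries did not overlap, yet the log2 fold change of 0.74 ± 0.29 was not called (edgeR adjusted p = 0.132). In Mlp124499 the log2 fold change was 0.01 ± 0.29 (adjusted p = 0.992), with libraries 1 and 2 above all Control libraries and libraries 3 and 4 below them.

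KNOLLE (AT1G08560, chr1:2709525-2711000, minus strand) encodes the syntaxin that fuses vesicles into the new wall between daughter cells. It stood at 24.0, 11.4, 12.9 and 13.7 CPM in Control 1 to 4, at 25.4, 27.2, 30.0 and 12.2 CPM in Mlp37347 1 to 4, and at 18.8, 16.5, 11.4 and 12.1 CPM in Mlp124499 1 to 4. Here Control 1 was far above the other Control libraries and near the level of Mlp37347 1. The log2 fold change in Mlp37347 was 0.62 ± 0.31 (edgeR adjusted p = 0.222), and 0.88 without Mlp37347 4 (adjusted p = 0.0305).

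CDC20.1 (AT4G33270, chr4:16044169-16046937, minus strand) encodes an activator of the anaphase-promoting complex, which marks mitotic cyclins for destruction. It stood at 12.2, 13.3, 18.2 and 25.7 CPM in Control 1 to 4, at 44.6, 45.9, 48.7 and 15.4 CPM in Mlp37347 1 to 4, and at 31.0, 21.2, 6.74 and 13.3 CPM in Mlp124499 1 to 4. Mlp37347 4 fell inside the Control range, below the other libraries of its line. The log2 fold change in Mlp37347 was 1.15 ± 0.45 (edgeR adjusted p = 0.130), and 1.44 without Mlp37347 4 (adjusted p = 0.0243). In its exons, 33.2% of the stretches of 50 bases occur again in CDC20.2 (AT4G33260), so the counts of both genes are uncertain.

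AUR1 (AT4G32830, chr4:15842443-15844865, plus strand) encodes an Aurora kinase of the spindle and the cell plate. It stood at 3.05, 3.58, 5.91 and 5.55 CPM in Control 1 to 4, at 12, 12.9, 10.6 and 4.26 CPM in Mlp37347 1 to 4, and at 5.99, 4.43, 2.56 and 4.47 CPM in Mlp124499 1 to 4. The first 3 Mlp37347 libraries were above all others and the remaining one lay within the Control range. The log2 fold change was 1.12 ± 0.36 in Mlp37347 against Control (edgeR adjusted p = 0.0704) and 1.19 ± 0.36 against Mlp124499 (adjusted p = 0.102). Without Mlp37347 4 both were called, at 1.40 (adjusted p = 0.00541) and 1.43 (adjusted p = 0.00678). AUR1, KNOLLE and the 3 B-type CDK genes each overlap a locus on the opposite strand, and the sources used here do not say whether counting used strand.

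The line with Mlp124499 spread around Control rather than standing to one side of it. Its fitted log2 fold changes ran from -0.16 for CYCB1;3 to 0.58 for CYCD3;1, with 7 above 0 and 3 below and a median of 0.11. None of the 10 had an unadjusted p under 0.05 in edgeR, where 6.79% of all genes tested were higher and 9.26% lower at that threshold. DESeq2 called 0 of the 10 higher, against 3.40% of the genes it tested. By limma voom with sample weights 4 were called higher, against 16.1% of all genes. Library 1 was above every Control library in 7 of the 10 genes and library 2 in 6, against 26.0% and 25.1% of all genes tested. Between the effector lines, the 10 fitted differences were 0.43 to 1.19 higher in Mlp37347, with a median of 0.75. At an unadjusted p under 0.05, 6 of the 10 were higher in Mlp37347, against 8.87% of all genes. DESeq2 called 1 and limma voom 9, against 3.60% and 27.3% of all genes. Without Mlp37347 4, edgeR called CYCB1;2, KNOLLE, CDC20.1 and AUR1 higher in Mlp37347, with log2 differences of 1.02, 0.90, 1.35 and 1.43, against 7.26% of all genes tested called higher. Without Mlp124499 4 as well, 3 of the 10 were, against 13.0% of genes. This comparison and those against Control share libraries.

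Expressed as CPM per kilobase of exon, which allows genes to be compared, KNOLLE led in Control at 11.2 ± 4.16, followed by CDC20.1 at 8.30 ± 2.93, CYCD3;1 at 7.63 ± 1.15 and CDKB2;1 at 6.68 ± 1.23 (SD, n = 4). CYCB1;2 at 5.20 ± 0.586 and CDKB2;2 at 4.51 ± 0.635 came next, and AUR1, CYCB1;1, CDKB1;1 and CYCB1;3 followed at 2.99 ± 0.940, 2.31 ± 0.510, 1.34 ± 0.525 and 1.20 ± 0.567. Each gene differed from the next in this order by less than the sum of their SDs, and the same held in both effector lines. In Mlp37347 the order began with CDC20.1 at 18.5 ± 7.44, KNOLLE at 17.1 ± 5.71 and CYCD3;1 at 16.8 ± 4.47, and in Mlp124499 with CYCD3;1 at 11.5 ± 3.96, KNOLLE at 10.6 ± 2.56 and CDC20.1 at 8.63 ± 5.01.

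In the edgeR fit to 12 libraries, the nearest relatives of the 10 genes were not called in any of the 3 comparisons. Without Mlp37347 4, 14 of the wider list of 26 genes that holds them were called higher in Mlp37347 than in Control. The share over all genes tested was then 11.6%. CYCD3;3 (AT3G50070), a close relative of CYCD3;1, stood at 1.19, 2.86, 4.09 and 5.78 CPM in Control 1 to 4, at 13.2, 11.8, 14.4 and 3.37 CPM in Mlp37347 1 to 4, and at 4.54, 4.76, 3.1 and 8.36 CPM in Mlp124499 1 to 4. Its log2 fold change of 1.58 ± 0.49 in Mlp37347 missed the threshold (edgeR adjusted p = 0.0643), and the values again separated Mlp37347 1 to 3 from library 4. CYCD3;2 had a log2 fold change of 0.51 ± 0.24, CYCB1;4 of 0.66 ± 0.33 and CDKB1;2 of 0.69 ± 0.45. CDC20.2 had 0.90 ± 0.39, AUR2 had 0.86 ± 0.38 and AUR3 had 0.71 ± 0.38. CDKA;1, the constitutive CDK that partners the D-type cyclins, was at 47.5 ± 8.10 CPM in Control and 45.3 ± 12.1 CPM in Mlp37347, a log2 fold change of -0.07 with a 95% interval of -0.52 to 0.38.

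**Figure D4:**
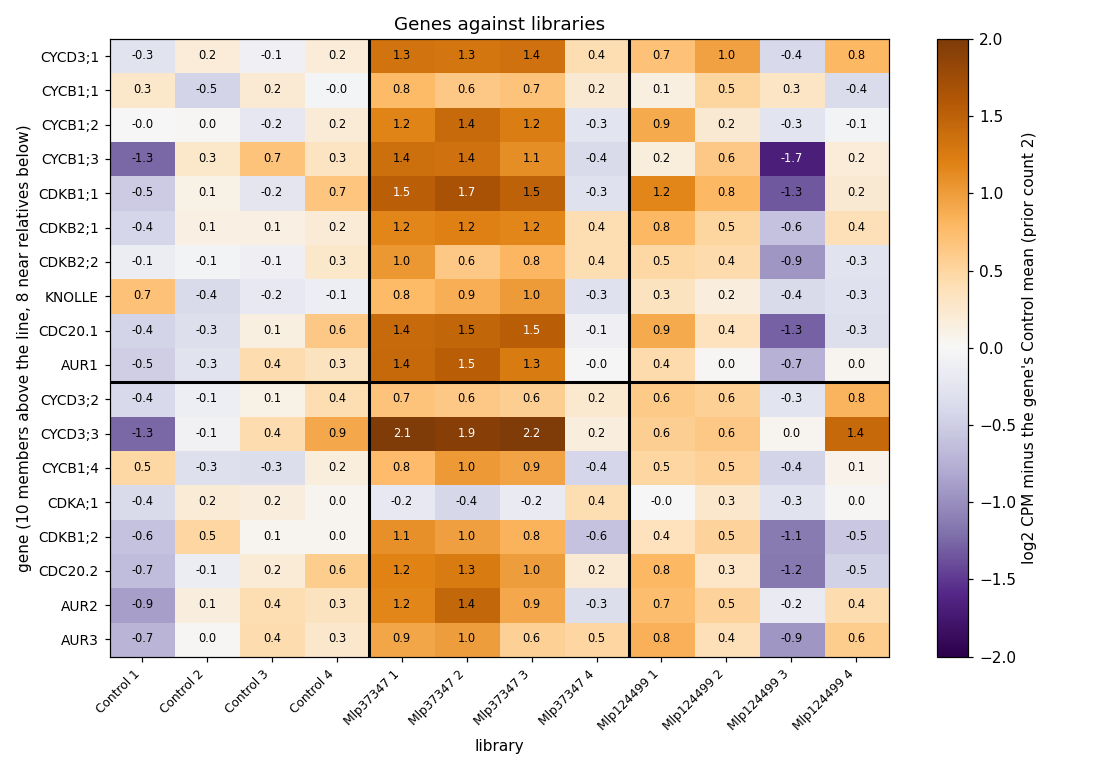
Log2 CPM of the 10 genes (above the line) and 8 of their near relatives (below it) in each of the 12 libraries, as the difference from the gene's own Control mean, with a prior count of 2. Orange is higher and purple lower than the Control mean. Mlp37347 1, 2 and 3 are orange in every one of the 10 upper rows, and so are 7 of the 8 relatives, CDKA;1 being below its Control mean there.

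Over 26 tested cyclins, CDKs and close relatives outside the 10, 0 rose and 0 fell in Mlp37347 against Control in edgeR, with a median log2 fold change of 0.70. At an unadjusted p under 0.05, 9 were higher and 1 was lower, against 11.6% and 13.7% of all genes tested. DESeq2 called 4 higher and 1 lower, and limma voom 21 and 3, where they called 7.05% and 27.6% of all genes higher. Without Mlp37347 4, 14 rose and 0 fell, where 11.6% of all genes were called higher and 11.1% lower. CYCD1;1 (AT1G70210), another D-type cyclin, had a pattern of its own. It stood at 22.0, 18.1, 19.0 and 22.2 CPM in Control 1 to 4, at 15.2, 13.9, 15.6 and 15.0 CPM in Mlp37347 1 to 4, and at 39.8, 34.0, 35.2 and 39.0 CPM in Mlp124499 1 to 4. The 3 groups did not overlap, and within each group the 4 libraries, including Mlp37347 4 and Mlp124499 3, lay close together. It rose from 20.3 ± 2.11 to 37.0 ± 2.86 CPM in Mlp124499 (log2 fold change 0.86 ± 0.14, edgeR adjusted p = 0.00561), and it was lower in Mlp37347 than in Mlp124499 by a log2 difference of -1.31 ± 0.14 (adjusted p = 8.36e-04). It was the only one of the 26 called in Mlp124499 against Control, where 1.56% of all genes tested were called higher. Both calls of CYCD1;1 held with each library left out, at an adjusted p of at most 0.0296 and 0.00691.

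Genes of other steps of the cycle were measured beside the 10. Of 23 genes of mitosis and cytokinesis, 1 rose and 0 fell in Mlp37347 against Control, with a median log2 fold change of 0.71. Over all genes tested, 3.19% were called higher and 5.42% lower. At an unadjusted p under 0.05, 8 of the 23 were higher and 1 lower, against 11.6% and 13.7% of all genes tested. The gene called was MAD2, which delays anaphase until chromosomes are attached. It stood at 5.97, 5.92, 6.31 and 7.04 CPM in Control 1 to 4 and at 16.1, 14.3, 16.5 and 5.94 CPM in Mlp37347 1 to 4, a log2 fold change of 1.06 ± 0.28 (edgeR adjusted p = 0.0336). Of the same 23 genes, SNAP33, a SNARE that pairs with KNOLLE and also serves secretion in defence, fell in Mlp124499 from 107 ± 23.9 to 63.5 ± 6.71 CPM (log2 fold change -0.75 ± 0.19, adjusted p = 0.0444). In Mlp124499 against Control, 2.71% of all genes tested were called lower. The count of 1 for MAD2 was 0 when any Control library or Mlp37347 1, 2 or 3 was left out. It was 12 without Mlp37347 4, against 11.6% of all genes called higher. The count of 1 for SNAP33 was 0 without any 1 of Control 1, 2 or 3, Mlp37347 1, 2 or 3, or Mlp124499 1, 2 or 3.

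Of 12 genes of DNA replication, 3 rose and 0 fell in Mlp37347 against Control, with a median log2 fold change of 0.90. Over all genes tested, 3.19% were called higher and 5.42% lower. The 3 were MCM4 and MCM7, subunits of the replicative helicase, and CDC45, which joins that helicase. Their log2 fold changes were 1.06 ± 0.27 (edgeR adjusted p = 0.0309), 1.07 ± 0.28 (adjusted p = 0.0333) and 1.10 ± 0.31 (adjusted p = 0.0471). MCM4 stood at 7.03, 8.40, 9.60 and 8.83 CPM in Control 1 to 4 and at 20.6, 20.6, 19.5 and 9.76 CPM in Mlp37347 1 to 4. CDC45 was also lost without Mlp124499 1 or 2 (adjusted p up to 0.126 over all libraries left out). The count of 3 was 0 without any 1 of the 4 Control libraries or of Mlp37347 1, 2 and 3. It was 11 without Mlp37347 4, against 11.6% of all genes called higher. In Mlp124499, 0 of the 12 were called in edgeR, 0 in DESeq2 and 11 in limma voom, which called 16.1% of all genes higher. There edgeR called 2 higher without Mlp37347 4, against 3.76% of all genes, and 7 higher without both effector libraries numbered 4, against 8.99%. All 12 fold changes were above 0 there, with a median of 0.63 in the fit to 12 libraries. Of the 12 genes, 1 had an unadjusted p under 0.05, where 6.79% of all genes tested were higher.

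Among 24 tested regulators and inhibitors of the cell cycle, 0 were called in either effector line, with medians of -0.11 in Mlp37347 and -0.04 in Mlp124499. Without Mlp37347 4, 5 were called higher and 1 lower in Mlp37347, where 11.6% of all genes were called higher and 11.1% lower. The 5 were WEE1, MYB3R4, KRP3, CCS52B and CCS52A1, with log2 fold changes of at least 0.46, and KRP4 was the lower one at -0.80. At an unadjusted p under 0.05, 2 were higher and 3 lower in Mlp37347, and 0 were higher and 2 lower in Mlp124499. The shares of all genes tested were 11.6% and 13.7% in Mlp37347, and 6.79% and 9.26% in Mlp124499. DESeq2 called 0 higher and 1 lower in Mlp37347 and 0 in Mlp124499, and limma voom 8 and 6 in Mlp37347 and 4 and 3 in Mlp124499. Over all genes, limma voom called 27.6% higher in Mlp37347 and 16.1% in Mlp124499, and 5636 and 3841 of 19090 lower. DESeq2 called 7.05% of 18721 genes higher and 1476 lower in Mlp37347. KRP1 and KRP2, which encode inhibitors that bind cyclin-CDK pairs, were chosen after their values were seen. KRP1 (AT2G23430) stood at 80.8, 21.0, 23.4 and 14.6 CPM in Control 1 to 4, at 12.5, 13, 15.5 and 5.32 CPM in Mlp37347 1 to 4, and at 9.71, 10.3, 41.3 and 20.4 CPM in Mlp124499 1 to 4. KRP2 (AT3G50630) stood at 35.0, 12.9, 12.3 and 12.4 CPM in Control 1 to 4, at 8.55, 9.09, 9.52 and 4.79 CPM in Mlp37347 1 to 4, and at 7.62, 7.54, 21.5 and 18.0 CPM in Mlp124499 1 to 4. Both were highest in Control 1 and next highest in Mlp124499 3, the library in which 8 of the 10 genes were at their lowest, and both were lowest in Mlp37347 4. Of 5 tested genes of the DNA damage response, 0 were called in either line, with medians of 0.52 in Mlp37347 and -0.26 in Mlp124499, and 2 were higher in Mlp37347 at an unadjusted p under 0.05 (DESeq2 called 0 and limma voom 3 there). Among all genes tested, 11.6% were higher in Mlp37347 at that unadjusted threshold, and limma voom called 27.6% higher. Without Mlp37347 4, 3 of the 5 were called higher in Mlp37347, against 11.6% of all genes.

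**Figure D5:**
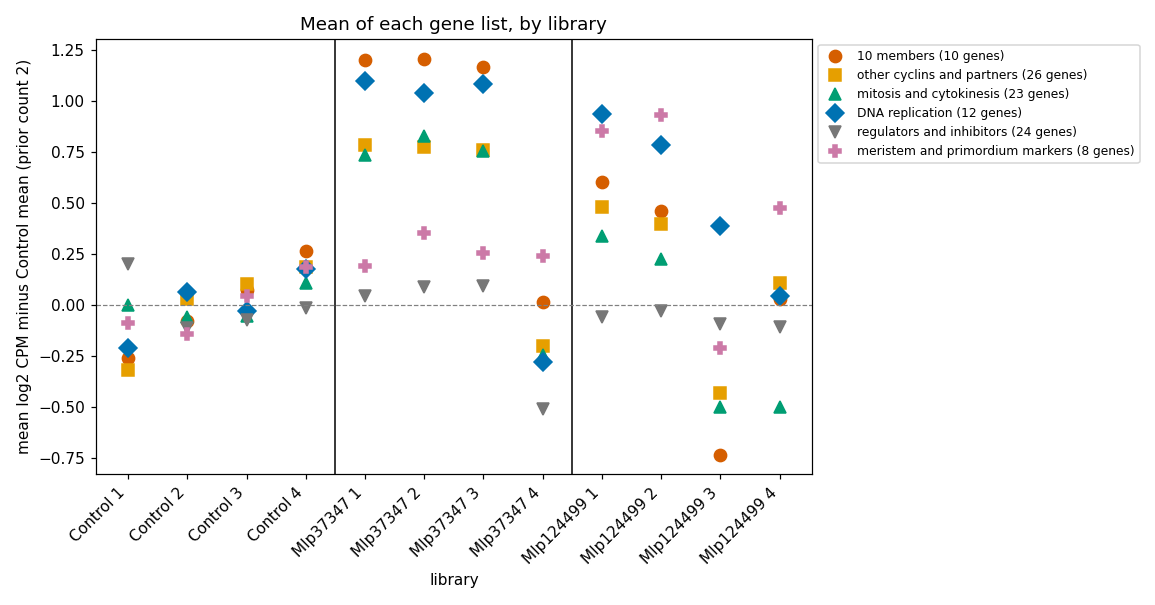
Mean log2 CPM of each gene list, as the difference from the Control mean (y axis, prior count of 2), in the 12 libraries (x axis). The 10 genes lie at 1.20, 1.21 and 1.17 in Mlp37347 1 to 3, at 0.01 in Mlp37347 4 and at -0.73 in Mlp124499 3, and the replication list at 1.10, 1.04, 1.08, -0.28 and 0.39 in the same libraries.

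Markers of tissues that the shoot samples could hold in different amounts were measured in the same libraries. The summed level of 10 meristem and primordium markers was 177 to 224 CPM in Control, 155 to 241 CPM in Mlp37347 and 200 to 287 CPM in Mlp124499, with CLV3 and WUS, which define the stem cell niche, at 0 to 3 counts in every library. Of these markers GRF1, which encodes a growth-regulating transcription factor of leaf primordia, rose in both lines. Its level went from 8.08 ± 3.08 CPM in Control to 18.4 ± 2.83 CPM in Mlp37347 (edgeR adjusted p = 0.0396) and to 22.4 ± 8.69 CPM in Mlp124499 (adjusted p = 0.0248). Mlp37347 4 had 21.0 CPM of GRF1, and the other Mlp37347 libraries had 15.1, 20.6 and 17 CPM. Averaged over the 10 division genes, Mlp37347 4 was 0.01 above the Control mean on the log2 scale, below the other libraries of its line. Most of the summed level came from the receptor gene CLV1, at 148 ± 21.0, 106 ± 44.1 and 158 ± 13.5 CPM in Control, Mlp37347 and Mlp124499 (SD, n = 4). Of the 8 markers tested, 3 were higher in Mlp37347 at an unadjusted p under 0.05, namely GRF1, its relative GRF2 (7.91 ± 1.22 CPM in Control and 13.1 ± 2.97 CPM in Mlp37347, edgeR adjusted p = 0.0526) and ANT, a regulator of organ growth (9.58 ± 0.984 and 16.9 ± 4.09 CPM, adjusted p = 0.0945). At that unadjusted threshold, 11.6% of all genes tested were higher. Over the 8 markers in Mlp37347, 5 fold changes were above 0 and 3 below, with a median of 0.08 on the log2 scale. Per kilobase of exon, STM stood at 1.8 ± 0.442 CPM in Control and 1.7 ± 0.344 CPM in Mlp37347 (SD, n = 4). KNAT1 stood at 3.72 ± 0.32 and 3.16 ± 0.375 CPM per kilobase. Without Mlp37347 4, GRF1, GRF2 and ANT were called higher and CLV1 lower, with 4 fold changes above 0 and 4 below. In Mlp124499 all 8 fold changes were above 0, with a median of 0.51 on the log2 scale, and 2 had an unadjusted p under 0.05. Of all genes tested there, 6.79% were higher at that threshold. Stomatal lineage markers summed to 51.4 to 65.3 CPM in Control, 51.8 to 62.1 CPM in Mlp37347 and 50.5 to 69.1 CPM in Mlp124499, with 0 of 7 called in edgeR and 0 of 7 at an unadjusted p under 0.05 in any comparison. Leaf mesophyll markers summed to 17300 to 35900 CPM in Control, 32200 to 42500 CPM in Mlp37347 and 24600 to 34300 CPM in Mlp124499. Among them the antenna gene CAB3 rose in Mlp37347, at 9300, 10500, 8810 and 4660 CPM in libraries 1 to 4 against 1880 to 5000 CPM in Control, with a log2 fold change of 1.30 and an edgeR adjusted p of 0.0237. It was the only 1 of the 4 called there, where 3.19% of all genes tested were called higher. Of the 4 fold changes, 3 were above 0 and 1 below, with a median of 0.40. Per kilobase of exon, RCA stood at 3610 ± 985 CPM in Control and 3500 ± 766 CPM in Mlp37347. LHCB2.1 stood at 3060 ± 1190 and 3630 ± 305 CPM per kilobase. The GRF1 call was lost in Mlp37347 without any 1 of Control 1, 2 and 3 and Mlp37347 1, 2 and 3, and in Mlp124499 without any 1 of Control 1, 2 and 3 and Mlp124499 1 and 2. The CAB3 call was lost without any 1 of Control 2 and 3 and Mlp37347 1, 2 and 3. Adjusted p-values then reached 0.108, 0.0904 and 0.0764. Root markers summed to at most 0.656 CPM and flower markers to at most 2.65 CPM in any library. The part of the meristem, primordium and leaf markers, the mate inner distance and the KRP genes in the levels of the 10 genes was not tested.

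The 10 genes differed among themselves in how closely they followed their common pattern over the 12 libraries. The root-mean-square distance of a gene's centred log2 CPM from the mean of the 10 was lowest for CDKB2;1 at 0.16, and was 0.23 for both AUR1 and CYCB1;2. It was highest for CYCB1;3 and CYCB1;1, at 0.48 and 0.47. The distance also takes in counting noise and the size of a gene's changes. CYCB1;3 had 5 counts in Control 1 and 6 in Mlp124499 3. CYCB1;1 had the smallest SD of log2 CPM over the 12 libraries, at 0.39. Among 14506 genes outside the set with a mean of at least 5 CPM, the profile closest to that mean was that of ATK1, a spindle kinesin, at 0.15. Next came SVR1, a chloroplast pseudouridine synthase, at 0.17, AT5G51590 at 0.17, DRP5A, a dynamin of cytokinesis, at 0.17, and AT1G80690 at 0.18. ATK1 stood at 5.84, 6.77, 6.44 and 8.55 CPM in Control 1 to 4, at 14, 14.7, 14.6 and 5.41 CPM in Mlp37347 1 to 4, and at 9.43, 10.2, 4.80 and 6.10 CPM in Mlp124499 1 to 4. Those values hold the same high libraries, Mlp37347 1 to 3, and the same low one, Mlp124499 3, as the 10 genes. This follows from choosing ATK1 by its closeness to their mean profile.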

How the data were processed

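Whole-number counts of read pairs per locus were deposited by the authors for each library. Per the submitters' processing notes and the design text, reads were trimmed with Trimmomatic, aligned to TAIR10 with TopHat 2.0.14 and counted over Ensembl Plants transcripts in R 3.2.5 in union mode. A further deposited table gives read numbers, which are counts, and mate inner distances. How reads with several alignments were counted is not given in the sources used here.

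Here the counts were scaled by TMM and fitted in edgeR 4.0.16 (glmQLFit and glmQLFTest, R 4.3.3) with 12 libraries in 1 fit after filterByExpr, with Benjamini-Hochberg adjustment over 19090 genes (threshold 0.05). SE is the size of the log2 fold change over the root of F. The code of the test was checked on simulated counts, with the same small spread for every gene and no deviating library. That check does not give error rates at the spread of these libraries. DESeq2 1.42.0, limma 3.58.1 voom, other scalings and filters, a replicate block and leaving out libraries were alternatives. Positions and promoters are from RefSeq's TAIR10.1, since the counts carry no coordinates. Members and gene lists were chosen with earlier results of these data known. Text names all 10 genes, 8 near relatives, up to 5 called genes per list and the 5 nearest profiles. Outside that rule it also names KRP1, KRP2, KRP5, KRP6, KRP7, CLV1, CLV3, WUS, STM, KNAT1, GRF2, ANT, RCA and LHCB2.1, and the regulators called only without Mlp37347 4. The promoter window of 1 gene is not reported here. Protein sequences were not analysed here.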

Additional observations from a re-analysis of the deposited data

Results flagged for a closer look

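In 6 of the 30 groups of 4 libraries (10 genes in 3 lines), 1 library lay far from the other 3 by Dixon's test at its 95% critical value. That test flags about 1 group in 20 by chance. The 10 genes were measured in the same 12 libraries, so the 30 groups are not independent and the 6 cannot be set against that rate. In Mlp37347 library 4 was the low one for CYCD3;1 (19.0 CPM), CDKB1;1 (1.42 CPM), CDKB2;1 (12.1 CPM) and CDC20.1 (15.4 CPM). In Control, library 1 was low for CDKB2;1 (6.64 CPM) and library 4 was high for CDKB2;2 (7.60 CPM).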

How the results depend on the processing

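No fitted fold change of the 10 genes in Mlp37347 against Control changed sign under 22 alternatives, with values of 0.40 to 1.55 on the log2 scale, but the calls did change. The number of the 10 called higher, 2 in the edgeR test, was 0 with scaling by total counts alone, 1 with no filter on low counts, 4 in DESeq2 (7.05% of all genes), 10 in limma voom with sample weights (27.6% of all genes), 0 at an adjusted p of 0.01 and 9 without both effector libraries numbered 4. It ran from 0 to 7 when 1 library was left out, with 7 without Mlp37347 4, 0 without any 1 of Control 1, 2 and 3 and Mlp37347 1, 2 and 3, and 1 without Control 4 or Mlp124499 2. With the replicate block it was 0. Deviations of same-numbered libraries from their group means had correlations of -0.386 to 0.09. With 4 libraries per group, some of them far from the rest, these values cannot decide whether same-numbered samples were grown or handled together. The sources used here do not say. The block moved the count of all genes called higher from 609 to 236 and lower from 1035 to 566. Total counts alone gave 351 higher and 1900 lower. In Mlp124499 against Control, limma voom called 4 of the 10 higher and every other alternative called 0. Between the effector lines the number called higher in Mlp37347 was 1 in DESeq2, 9 in limma voom, 0 to 4 with 1 library left out and 3 without both libraries numbered 4. Of 220 fold changes in Mlp124499 against Control, 24 took the other sign. By setting these were CYCB1;3 at 0.015, KNOLLE at 0.458 and AUR1 at 0.152 in limma voom, CDKB2;2 at -0.037 with total counts, CDKB2;2 at -0.061 and CDC20.1 at -0.094 with the block, and KNOLLE at 0.068 without both libraries numbered 4. With 1 library left out, values ran from -0.024 to 0.406 for CYCB1;2, -0.411 to 0.155 for CYCB1;3, -0.170 to 0.237 for CDKB2;2, -0.207 to 0.213 for KNOLLE, -0.343 to 0.321 for CDC20.1 and -0.256 to 0.116 for AUR1. The cause of these changes was not tested. With the window of 250 bases before the start alone, the AACGG core was still in 7 of 9 genes, against 20.6% of all windows. CYCB1;3 and CDKB1;1, with as few as 5 and 8 counts in a library, are limited most by depth.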
